A study of Mus musculus with 20 samples.

Results

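The Lce3 genes are the injury-type group of late cornified envelope genes. Their 6 members in the mouse, Lce3a to Lce3f, were taken from the deposited probe set table by gene symbol, and all 6 were measured, each by 1 probe set with a single symbol, among 22180 genes in all. The probe sets were 17407489 for Lce3a, 17399906 for Lce3b, 17399910 for Lce3c, 17399914 for Lce3d, 17399917 for Lce3e and 17399922 for Lce3f. Gene expression had been measured on Affymetrix mouse arrays in abdominal skin of 4 groups of 5 mice. Knockout (KO) mice carried zfp36 fl/fl together with K14 cre, in which the keratin 14 promoter of basal keratinocytes drives the recombinase, and were treated with imiquimod or mock. Controls were littermates that carried zfp36 fl/fl without Cre, also treated with imiquimod or mock, so the floxed allele was common to all 4 groups. Imiquimod activates Toll-like receptor 7, and on mouse skin it leads to inflammation with features of psoriasis. It was applied on 5 consecutive days, and skin was taken 4 hours after the last application. Zfp36 encodes tristetraprolin, which binds AU-rich elements of messenger RNAs and promotes their decay. Cells other than keratinocytes keep the gene in the knockout, and the labels state neither age nor sex of the mice.

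Late cornified envelope proteins are small proteins that transglutaminases cross-link into the cornified envelope, the protein shell of dead surface keratinocytes. Their genes lie in the epidermal differentiation complex beside those of loricrin, filaggrin and the small proline-rich proteins. In human skin the LCE3 group is hardly expressed in intact epidermis, is induced by injury and in psoriatic plaques, and a common deletion of LCE3B and LCE3C is associated with psoriasis. Genes of the LCE1 group belong in contrast to normal barrier formation.

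All values below are deposited probe set values on a scale taken as log2, which is read from the values since the sources used here do not name the log base. A level of 1 probe set cannot be set against that of another. No measure of background was used, so folds from low values have an uncertain size. Array medians lay between 4.94 and 5.04, and the 20 arrays limit the precision, with standard errors of group differences that had a median of 0.11 over all genes. Zfp36, the targeted gene, was at 6.4 ± 0.85 in KO skin and 8.0 ± 0.26 in control skin under imiquimod, and at 5.43 ± 1.54 in KO skin and 7.46 ± 0.22 in control skin under mock (SD, n = 5 each). Single KO arrays came near the control values: KO imiquimod replicates 2 and 4 were at 7.41 and 7.18, against 7.68 in the lowest control imiquimod array, and KO mock replicates 2 and 3 at 6.84 and 7.12, against 7.22 in the lowest control mock array. The other 3 KO arrays lay between 5.47 and 6.12 under imiquimod and between 3.47 and 5.12 under mock. All of its KO arrays still lay below its control arrays in both treatments (exact two-sided permutation p = 0.00794 in each, the smallest that 5 arrays against 5 allow). In limma over all genes it did not pass (adjusted p = 0.221 under imiquimod and 0.999 under mock). Of 10 keratinocyte markers 9 were measured, all but Krt5, and the mean of the list lay between 10.3 and 10.4 in KO imiquimod arrays, 10.1 and 10.3 in control imiquimod arrays, 9.70 and 9.92 in KO mock arrays and 9.57 and 9.88 in control mock arrays.

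The 6 genes stand next to each other on chromosome 3 in the order Lce3a to Lce3f, with 2310050C09Rik and then Lce1l on the side of Lce3a and Crct1 and Lce1m on the side of Lce3f, in the RefSeq annotation of GRCm38.p6. Lce3a is read from the minus strand and the other members from the plus strand. The 120 bases before each annotated gene start are shown, from RefSeq and GRCm38.p6, because the members shared their response and these are the sequences next to their starts. Capitals mark 3 short runs that were read off these sequences: GTTGTGAAA, CATGCTTG and the TATA-like ATAAAA. The stretches are chr3:92926231-92926350 (minus strand) for Lce3a, and on the plus strand chr3:92932859-92932978 for Lce3b, chr3:92944366-92944485 for Lce3c, chr3:92957270-92957389 for Lce3d, chr3:92966941-92967060 for Lce3e and chr3:92992097-92992216 for Lce3f.
Lce3a: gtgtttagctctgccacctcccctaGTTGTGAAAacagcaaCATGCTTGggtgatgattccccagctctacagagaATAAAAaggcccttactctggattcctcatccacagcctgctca
Lce3b: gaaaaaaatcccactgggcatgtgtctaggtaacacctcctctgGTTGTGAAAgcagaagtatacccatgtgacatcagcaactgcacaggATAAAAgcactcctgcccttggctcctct
Lce3c: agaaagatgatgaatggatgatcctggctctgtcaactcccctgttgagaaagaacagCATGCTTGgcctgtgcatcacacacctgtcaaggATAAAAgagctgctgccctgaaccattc
Lce3d: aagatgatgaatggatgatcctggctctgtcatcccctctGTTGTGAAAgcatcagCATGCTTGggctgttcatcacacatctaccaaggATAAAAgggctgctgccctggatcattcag
Lce3e: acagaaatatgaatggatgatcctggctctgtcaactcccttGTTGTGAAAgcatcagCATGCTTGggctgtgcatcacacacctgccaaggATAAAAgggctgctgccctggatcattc
Lce3f: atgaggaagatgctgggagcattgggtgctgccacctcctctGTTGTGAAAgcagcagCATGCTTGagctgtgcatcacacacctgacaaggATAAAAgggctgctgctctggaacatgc

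ATAAAA was present before the start of all 6 members. It began 28 to 30 bases before the start in Lce3b to Lce3f and 44 bases before it in Lce3a. Of 32851 RefSeq promoters of 300 bases (250 before and 50 after the start), 18.5% held it on either strand. GTTGTGAAA was found in 5 members, all but Lce3c, between 76 and 95 bases before the start, and in 0.237% of all promoters. CATGCTTG was found in 5 members, all but Lce3b, and in 0.992% of all promoters. The 3 runs do not overlap each other. Since they were chosen by reading the members' sequences, their counts describe the members and test nothing.

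Binding motifs of inflammatory factors were searched on both strands of the same 300 bases. The AP-1 motif TGANTCA was in 0 of 6 members and 7.81% of all promoters, and the STAT motif TTCNNNGAA in 0 of 6 and 8.30%. A loose NF-kB motif, GGG and CC with 5 bases between, was found in 1 member, Lce3f, and in 50.8% of all promoters. These counts say only which letters lie in this window.

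Over the 300 bases, Lce3d and Lce3e were the most alike pair, with 83.8% identical positions in a global alignment. Lce3c shared 79.0% with Lce3e and 77.2% with Lce3d. Lce3f shared 64.5% to 69.1% with these 3 genes. Lce3a shared 56.8% to 60.8% with the other members, and Lce3b 57.5% to 59.8%. Between the 6 members and 14 promoters of the Lce1 group and Lce6a, 84 pairs in all, identity ran from 48.5% to 57.2% with a median of 52.6%. The alignment allowed gaps, and identity between unrelated promoters was not measured. The lower of these values therefore do not by themselves show shared sequence.

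The first question was how imiquimod changed the Lce3 genes in skin of the KO and of the control genotype. Every member was higher after imiquimod in both genotypes, and in each case the 5 imiquimod arrays lay above the 5 mock arrays of the same genotype. In limma over all genes 6 of 6 rose in KO skin, where 11.1% of the 22180 genes tested rose, and 6 of 6 rose in control skin, where 6.47% did. The groups did not overlap for 6 of 6 members in each genotype, against 7.16% of all genes in KO skin and 5.6% in control skin. The median of the members' log2 differences was 4.38 in KO skin and 4.06 in control skin, beside medians of -0.002 and -0.004 over all genes. Whether the probe sets of the 6 members share signal was not tested, so they may not be 6 separate measurements. In these bulk samples, more cells of a type and more RNA per cell cannot be told apart.

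**Figure D1:**
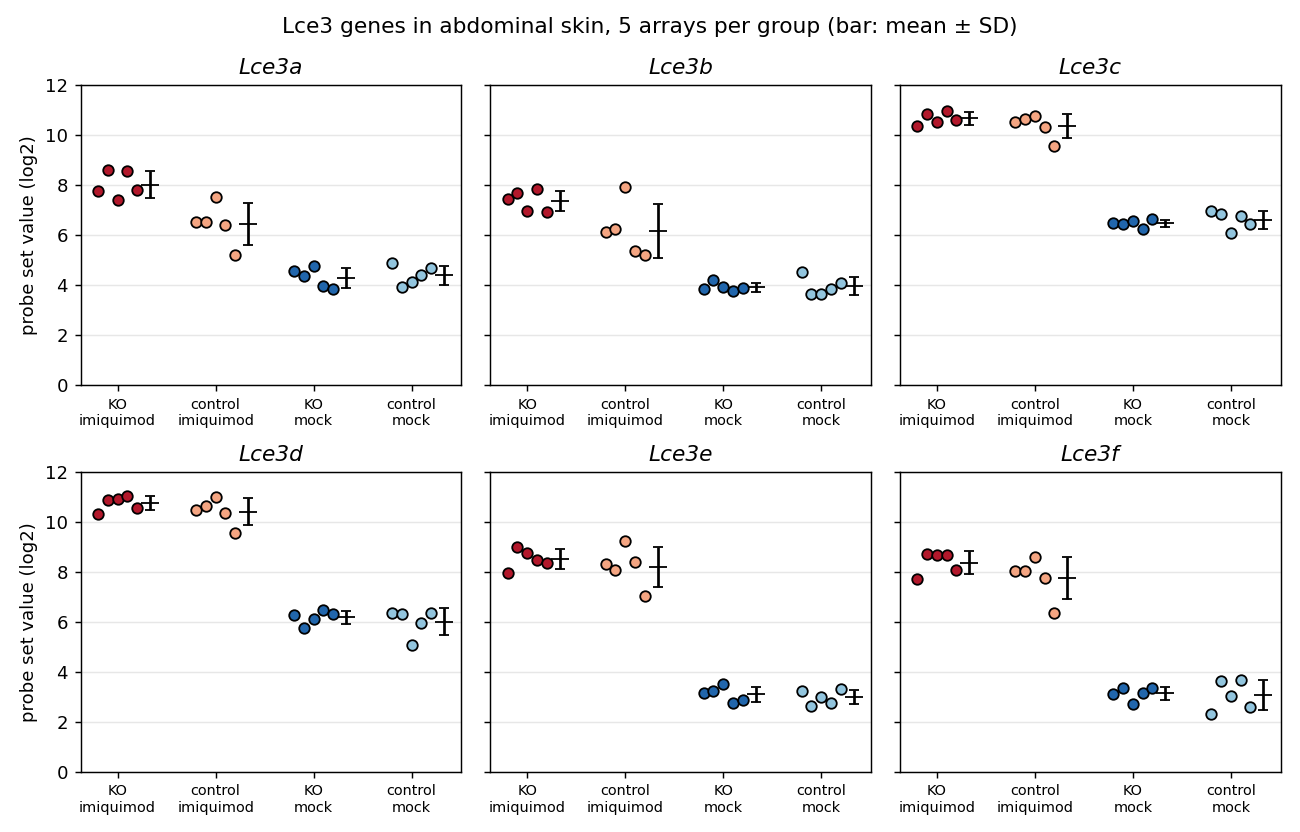
Probe set values (log2, vertical axis) of the 6 Lce3 genes on each array, 5 arrays in each of the KO imiquimod, control imiquimod, KO mock and control mock groups; points are arrays in replicate order and the bar beside them is the mean ± SD. All imiquimod arrays lie above all mock arrays of their genotype, and in control imiquimod skin replicate 3 is the highest and replicate 5 the lowest for each gene.

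Lce3e gave the largest rises. Its log2 values were 7.95, 8.98, 8.75, 8.48 and 8.35 in KO imiquimod arrays, against 3.14, 3.22, 3.52, 2.75 and 2.88 in KO mock arrays. In control mice they were 8.29, 8.08, 9.22, 8.38 and 7.01 after imiquimod, against 3.24, 2.65, 2.98, 2.75 and 3.33 after mock. The mock arrays of both genotypes thus sat near the low end of the scale, which runs from 1.41 to 13.33. Lce3e rose 42.2-fold in KO skin (log2 difference 5.40 ± 0.28, SE, n = 5 per group, limma adjusted p = 1.07e-10) and 36.9-fold in control skin (5.21 ± 0.28, adjusted p = 2.14e-10). By size of the rise it ranked 8 of 22180 genes in KO skin and 3 in control skin.

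Lce3f, the last gene of the row, came next. Its log2 values were 7.70, 8.69, 8.68, 8.65 and 8.05 in KO imiquimod arrays, against 3.10, 3.36, 2.71, 3.16 and 3.36 in KO mock arrays. Control skin gave 8.01, 8.04, 8.57, 7.74 and 6.36 after imiquimod, against 2.33, 3.63, 3.03, 3.69 and 2.61 after mock. The SD among mock arrays was 0.27 in knockouts and 0.60 in controls, and no imiquimod array came within 2 log2 units of a mock array of its genotype. Lce3f rose 37.2-fold in KO skin (log2 difference 5.22 ± 0.33, SE, n = 5 per group, limma adjusted p = 9.93e-10) and 25.7-fold in control skin (4.69 ± 0.33, adjusted p = 7.69e-09).

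The middle genes of the row are Lce3c and Lce3d. Lce3d values were 10.32, 10.88, 10.91, 11.03 and 10.56 in KO imiquimod arrays, against 6.25, 5.75, 6.09, 6.45 and 6.32 in KO mock arrays. In control mice Lce3d was at 10.46, 10.64, 10.99, 10.36 and 9.54 after imiquimod, against 6.33, 6.32, 5.07, 5.96 and 6.36 after mock. Control mock replicate 3 was the lowest of the 10 mock arrays for Lce3d. It rose 23.7-fold in KO skin (log2 difference 4.57 ± 0.25, SE, n = 5 per group, limma adjusted p = 1.38e-10) and 21.0-fold in control skin (4.39 ± 0.25, adjusted p = 4.49e-10).

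For Lce3c the log2 values were 10.37, 10.83, 10.51, 10.97 and 10.61 in KO imiquimod arrays, against 6.47, 6.42, 6.54, 6.24 and 6.65 in KO mock arrays. Control arrays held 10.51, 10.64, 10.76, 10.30 and 9.54 after imiquimod, against 6.97, 6.85, 6.08, 6.74 and 6.42 after mock. Its standard error was the smallest of the 6 members. Lce3c rose 18.3-fold in KO skin (log2 difference 4.19 ± 0.19, SE, n = 5 per group, limma adjusted p = 4.63e-11) and 13.3-fold in control skin (3.74 ± 0.19, adjusted p = 1.81e-10).

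Lce3a and Lce3b, the 2 genes at the 2310050C09Rik side of the row, showed smaller rises, most of all in controls. Lce3a values were 7.74, 8.59, 7.38, 8.54 and 7.79 in KO imiquimod arrays, against 4.56, 4.34, 4.77, 3.94 and 3.84 in KO mock arrays. In control mice Lce3a was at 6.53, 6.50, 7.53, 6.41 and 5.20 after imiquimod, against 4.87, 3.93, 4.12, 4.39 and 4.66 after mock. The lowest control imiquimod array, replicate 5, cleared the highest control mock array by 0.33 only. Lce3a rose 13.2-fold in KO skin (log2 difference 3.72 ± 0.32, SE, n = 5 per group, limma adjusted p = 8.67e-08) and 4.11-fold in control skin (2.04 ± 0.32, adjusted p = 0.000214).

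Lce3b had values of 7.43, 7.66, 6.95, 7.84 and 6.92 in KO imiquimod arrays, against 3.83, 4.21, 3.91, 3.76 and 3.86 in KO mock arrays. Control mice gave 6.13, 6.24, 7.93, 5.36 and 5.21 after imiquimod, against 4.53, 3.63, 3.66, 3.85 and 4.09 after mock. Control imiquimod replicate 3, at 7.93, was the highest of all 20 arrays, and the SD of its group, 1.08, was the widest of the 4 groups. Lce3b rose 10.9-fold in KO skin (log2 difference 3.45 ± 0.35, SE, n = 5 per group, limma adjusted p = 6.77e-07) and 4.67-fold in control skin (2.22 ± 0.35, adjusted p = 0.000212).

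**Figure D2:**
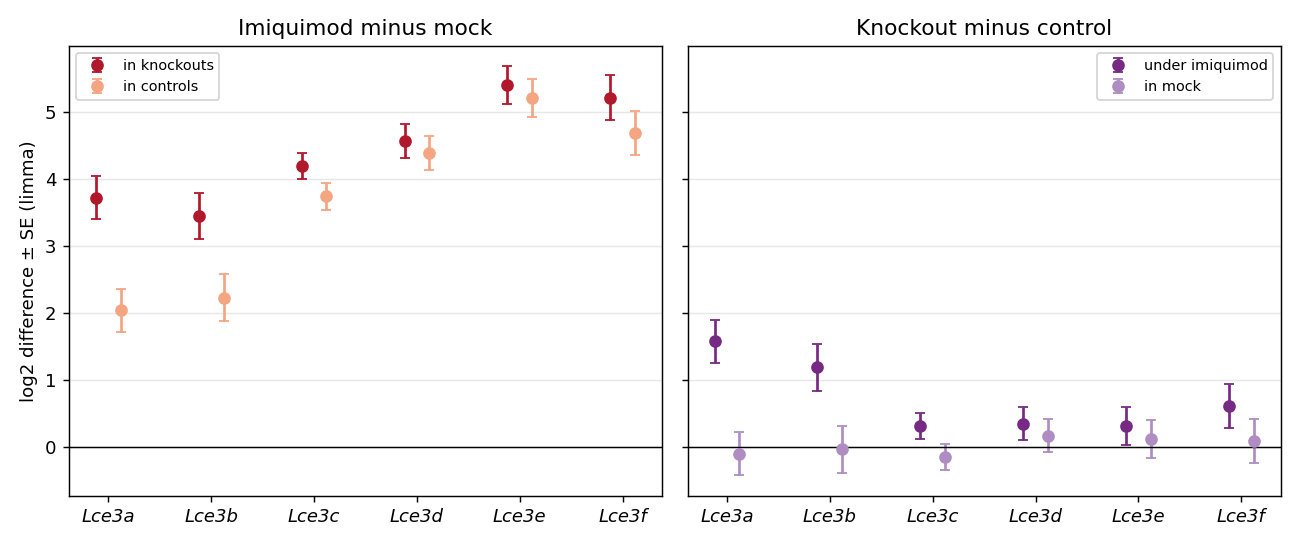
Log2 differences with their standard errors from limma (vertical axis) for the 6 Lce3 genes; the left panel gives imiquimod minus mock in knockouts and in controls, the right panel knockout minus control under imiquimod and in mock. The responses to imiquimod run from 2.04 for Lce3a in controls to 5.40 for Lce3e in knockouts, and the genotype differences under imiquimod from 0.31 to 1.57.

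The second question was whether the Lce3 genes differed between genotypes under imiquimod. The estimate was higher in KO skin for 6 of 6 members, with a median log2 difference of 0.48 beside 0.006 over all genes, but 1 member passed limma over all genes, Lce3a, where 0.374% of the genes tested were higher. Lce3a averaged 8.01 ± 0.53 in KO imiquimod arrays and 6.43 ± 0.83 in control imiquimod arrays (SD, n = 5 each), a 2.98-fold higher level (log2 difference 1.57 ± 0.32, SE, limma adjusted p = 0.0275). The groups overlapped, as they did for 6 of 6 members, while 1.3% of all genes had every KO array above every control array. Of its 5 KO arrays 4 lay above the highest control array, replicate 3 at 7.53, and KO replicate 3 at 7.38 lay below it. Leaving out any 1 of the control imiquimod replicates 1, 2, 4 and 5 ended this call (limma adjusted p = 0.0586, 0.0779, 0.0729 and 0.0619), as did fits without KO imiquimod replicate 2 or 4 (adjusted p = 0.102 and 0.0945). Those 2 arrays had the highest Lce3a values of their group, 8.59 and 8.54, and also its highest Zfp36 values, 7.41 and 7.18, and the part of this in the call was not tested. The call was also lost when only the imiquimod arrays entered the fit (adjusted p = 0.1).

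Lce3b averaged 7.36 ± 0.41 in KO imiquimod arrays and 6.17 ± 1.08 in control imiquimod arrays (SD, n = 5 each), and did not pass (log2 difference 1.19 ± 0.35, SE, limma adjusted p = 0.176). Control imiquimod replicate 3, at 7.93, exceeded every KO array. Without that array the difference was 1.63 and passed (limma adjusted p = 0.00154).

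The other 4 members had ratios of KO to control skin under imiquimod nearer to 1. The ratio was 1.24 for Lce3c, with an unadjusted 95% interval of 0.934 to 1.64 from limma, and 1.27 for Lce3d, with an interval of 0.884 to 1.82. It was 1.24 for Lce3e (interval 0.823 to 1.86) and 1.53 for Lce3f (interval 0.947 to 2.46). Their limma adjusted p-values ran from 0.571 to 0.804. KO and control arrays overlapped for each of them, and these intervals do not show that the genotypes were equal. The fit shared 1 spread per gene over all 4 groups. Control imiquimod arrays spread most of the 4 groups for Lce3c, Lce3e and Lce3f (SD 0.48, 0.79 and 0.83). The intervals of these genes may thus be too narrow. With each array left out in turn, the log2 difference ran from 0.11 to 0.41 for Lce3c and 0.13 to 0.49 for Lce3d. For Lce3e it ran from 0.0095 to 0.56 and for Lce3f from 0.26 to 0.82. Control imiquimod replicate 5 held the lowest control imiquimod value of each.

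Whether the genotype difference under imiquimod was unlike between members was tested within arrays, as the difference of 2 members' log2 values in the 5 KO against the 5 control arrays, over all 15 pairs. This test was chosen after the values were seen. Lce3a minus Lce3c shifted by 1.27 between KO and control arrays and Lce3a minus Lce3e by 1.27, each without overlap of the arrays (exact two-sided permutation p = 0.00794, Benjamini-Hochberg adjusted p = 0.0595 over the 15 pairs). For Lce3a minus Lce3d and Lce3a minus Lce3f the shifts were 1.23 and 0.96 (exact permutation p = 0.0159 and 0.0238, adjusted p = 0.0794 and 0.0893). The shifts of Lce3b against Lce3c, Lce3d, Lce3e and Lce3f lay between 0.58 and 0.88 (exact permutation p between 0.0635 and 0.183). Among Lce3c to Lce3f the largest shift in size was -0.30 (exact permutation p = 0.103). None of the 15 pairs passed the adjustment, while 2 reached the smallest exact p that this design allows. The adjustment left even those 2 pairs at 0.0595, so the lack of a pass does not show that the members were alike.

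In mock skin no member passed between genotypes, where 0.00902% of all genes tested were called in either direction. The 6 log2 differences, KO minus control, ran from -0.15 for Lce3c to 0.16 for Lce3d, 3 of them above 0, with limma adjusted p = 0.999 for each. KO and control mock arrays overlapped for all 6. The unadjusted 95% intervals for the ratio of KO to control reached from 0.583 at the lowest to 1.70 at the highest.

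How far the imiquimod response in KO skin exceeded that in control skin was tested as an interaction, which was positive for 6 of 6 members and passed for none, where 0.018% of all genes were called. At an unadjusted p under 0.05 the same test held 1497 of 22180 genes, and Lce3a (log2 difference 1.68 ± 0.46, SE, limma unadjusted p = 0.0015, adjusted p = 0.463) and Lce3b (1.22 ± 0.50, unadjusted p = 0.0229, adjusted p = 0.695) were among them. For the other 4 members it lay between 0.18 and 0.53, and its median over all genes was 0.004. Without control imiquimod replicate 5 the estimate was -0.037 for Lce3d and -0.10 for Lce3e. Both this test and the comparison under imiquimod use the same imiquimod arrays.

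By level, KO imiquimod had the highest mean and control imiquimod the next for each gene. Those neighbours overlapped in each case. The mock groups followed far below, in either order, and overlapped with each other as well.

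Hair follicle genes, of the hair shaft and of other follicle layers, varied widely between arrays within each group. Of 29 hair markers 26 were measured, and their mean log2 value ranged from 5.62 to 9.25 in KO imiquimod arrays (median 5.96), 5.39 to 9.46 in control imiquimod arrays (median 6.01), 6.06 to 10.3 in KO mock arrays (median 9.93) and 6.08 to 10.3 in control mock arrays (median 10.2). In limma 1 of the 26, the hair keratin gene Krt36, fell with imiquimod in KO skin and in control skin, where 9.71% and 4.37% of all genes fell. The 26 had a median log2 difference with imiquimod of -2.17 in KO skin and -2.94 in control skin. The hair mean thus varied with treatment as well as within groups. Control imiquimod replicate 5 had the highest hair mean of its group, 9.46, and the lowest value of all 6 Lce3 genes in that group. KO imiquimod replicate 1 had the highest hair mean of its group, 9.25, and the lowest value of 4 members, Lce3c to Lce3f. KO imiquimod replicate 4, at a hair mean of 7.49, held the highest value of 3 members.

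With the hair mean as a covariate the 6 members rose by 3.26 to 5.05 on the log2 scale in KO skin and by 1.58 to 4.63 in control skin, all with limma adjusted p under the threshold of 0.05, the largest being 0.00374 for Lce3a in controls. Lce3a kept its genotype call under imiquimod in that fit (log2 difference 1.62, limma adjusted p = 0.00377). After the array with the most distant hair mean was left out of each group, a step added once the data had been seen, the Lce3a difference was 1.33 and did not pass (adjusted p = 0.0727), while the 6 members still rose in both genotypes.

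**Figure D3:**
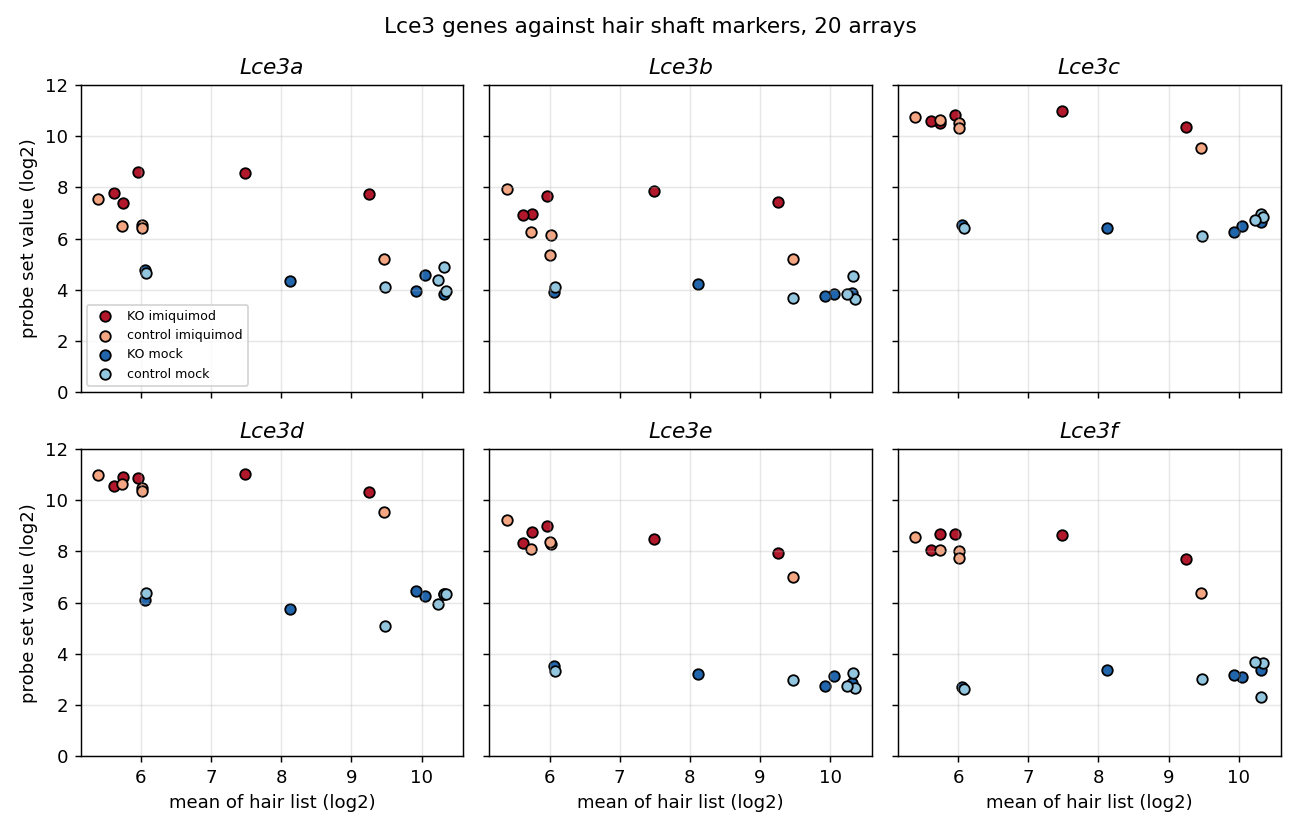
Probe set value of each Lce3 gene (log2, vertical axis) against the mean log2 value of 26 hair follicle markers (horizontal axis) on the 20 arrays, coloured by group. Imiquimod arrays with a hair mean above 9 still lie above the mock arrays of their genotype in each panel.

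Markers of neutrophils were also followed, since these cells enter imiquimod-treated skin. Of 10 markers 9 were measured, and their mean was 4.67 to 5.57 in KO imiquimod arrays, 4.34 to 4.65 in control imiquimod arrays, 4.12 to 4.44 in KO mock arrays and 4.05 to 4.29 in control mock arrays. In limma 3 of the 9 were higher with imiquimod in KO skin (median log2 difference 0.13) and 1 in control skin (median 0.048). Keratinocyte markers rose in part as well, with 5 of 9 higher with imiquimod in KO skin and 3 of 9 in control skin in limma. Over all genes 11.1% rose in KO skin and 6.47% in control skin. Of 10 muscle markers 6 fell and 1 rose in KO skin and 0 fell and 1 rose in control skin. Of 9 measured fat markers 6 fell in KO and 1 in control skin, and of 10 fibroblast markers 5 fell in each, beside the same 9.71% and 4.37% of all genes. Between genotypes under imiquimod, where Lce3a passed, the mean of the muscle markers was 8.03 to 8.88 in KO arrays and 8.86 to 9.83 in control arrays. Their median log2 difference there was -0.77, and 1 of 10 passed, the myosin gene Myh4 (-1.15, limma adjusted p = 0.0275). Over all genes 0.171% were lower. The part of hair, neutrophil, muscle, fat, fibroblast and keratinocyte content in the Lce3 values was not tested. The fits on hair genes cannot set hair content apart from treatment, since the hair mean varied with both.

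Genes beside the Lce3 row did not share its response in full. Crct1, the next gene after Lce3f, was at 7.85 ± 0.10 in KO imiquimod and 7.70 ± 0.25 in KO mock arrays, and at 8.21 ± 0.23 in control imiquimod and 7.90 ± 0.17 in control mock arrays (SD, n = 5 each; limma adjusted p = 0.473 and 0.116). Without control imiquimod replicate 5 its difference in controls passed (0.39, limma adjusted p = 0.0372). Lce1m, the gene after it, fell to 6.92 ± 0.84 in KO imiquimod arrays, against 9.29 ± 0.54 in KO mock arrays (SD, n = 5 each, limma adjusted p = 0.000199). In controls Lce1m was at 8.74 ± 0.44 after imiquimod and 9.51 ± 0.83 after mock (SD, n = 5 each, limma adjusted p = 0.246), and that difference was 0.039 with the mean of its probe sets and -1.67, past the threshold, with hair as a covariate (adjusted p = 0.000344).

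On the other side, 2310050C09Rik stands directly beside Lce3a. It was at 9.46 ± 0.46 in KO imiquimod and 9.01 ± 0.52 in KO mock arrays (SD, n = 5 each) and did not pass (limma adjusted p = 0.426), but passed without the arrays most distant in hair genes (adjusted p = 0.0227). In controls it rose to 10.03 ± 0.33 after imiquimod, against 8.60 ± 0.90 after mock (SD, n = 5 each, limma adjusted p = 0.00822), and not with hair as a covariate (adjusted p = 0.0906). Lce1l, next to it, was at 4.74 ± 0.51 in KO imiquimod and 4.50 ± 0.40 in KO mock arrays (SD, n = 5 each) and did not pass (limma adjusted p = 0.574). In controls it rose to 5.48 ± 0.32 after imiquimod, against 4.46 ± 0.44 after mock (SD, n = 5 each, limma adjusted p = 0.00828), and that call was lost with hair as a covariate (adjusted p = 0.11). Kprp, which encodes keratinocyte proline-rich protein, rose 1.62-fold in KO skin and 1.98-fold in control skin (limma adjusted p = 0.00799 and 0.000849). Lce1k beyond it rose 3.42-fold and 8.93-fold (limma adjusted p = 0.000183 and 2.91e-07). In KO skin the 6 neighbours all had smaller differences than the 6 Lce3 genes. In control skin the 8.93-fold rise of Lce1k was above the 4.11-fold of Lce3a and the 4.67-fold of Lce3b.

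**Figure D4:**
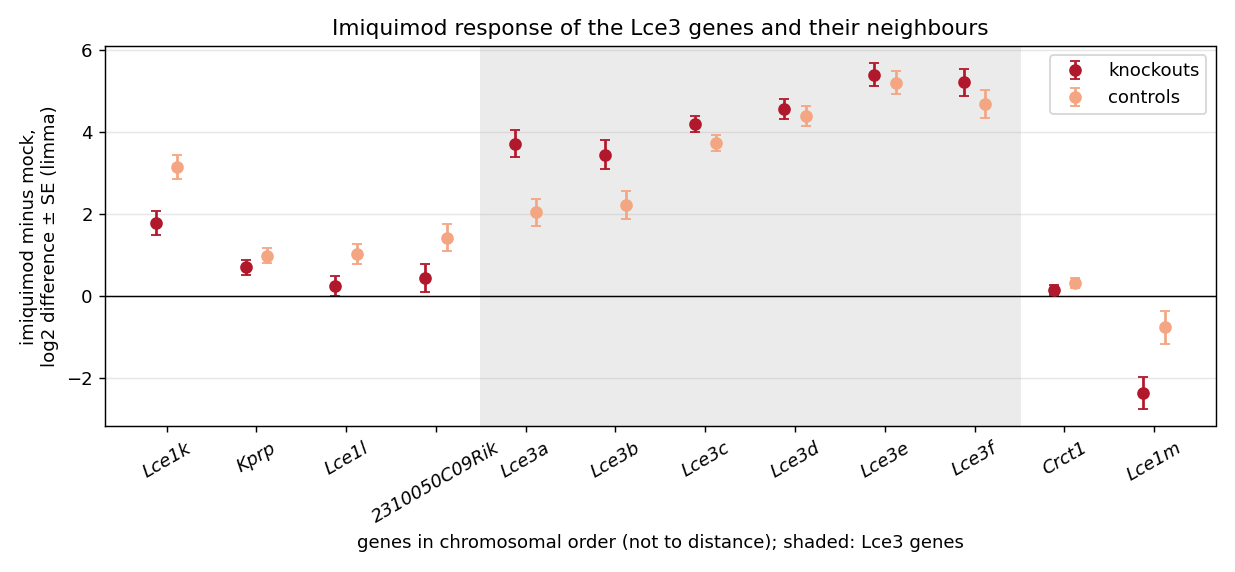
Imiquimod minus mock, as log2 difference with its standard error from limma (vertical axis), in knockouts and in controls for the Lce3 genes (shaded) and named neighbours in chromosomal order, which is not drawn to distance. The 6 Lce3 genes lie between 2.04 and 5.40, and Lce1m lies at -2.37 in knockouts.

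The wider families were compared by counts from the same fit. Of 15 genes of the Lce1 group with Lce6a 12 were measured. With imiquimod 7 rose and 1 fell, Lce1m, in KO skin (median log2 difference 0.81), where 11.1% of all genes rose and 9.71% fell. In control skin 11 rose (median 1.54), where 6.47% of all genes rose. Lce1e rose most of them, 5.66-fold in KO and 13.4-fold in control skin (limma adjusted p = 2.9e-05 and 2.9e-07). Between genotypes under imiquimod the median of the 12 was -0.72, on the other side of 0 from the 0.48 of the Lce3 genes, and 1 of the 12 passed, again Lce1m, with a log2 difference of -1.83 (limma adjusted p = 0.0364), where 0.171% of all genes were lower. This comparison shares its KO imiquimod and control imiquimod arrays with the treatment comparisons. This call was lost without any 1 of 7 of the imiquimod arrays and with the mean of its probe sets (adjusted p = 0.0636), or with only the imiquimod arrays (adjusted p = 0.0683), and 6 of the 12 were lower with hair as a covariate.

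Small proline-rich proteins are further cross-linked envelope precursors of the same complex. Of 15 genes 11 were measured. With imiquimod 8 rose in KO skin (median 3.10), where 11.1% of all genes rose, and 6 in control skin (median 1.41), where 6.47% did. The largest rises were those of Sprr2e in KO skin (log2 difference 5.85 ± 0.28, SE, n = 5 per group, limma adjusted p = 4.63e-11) and Sprr1b in control skin (4.41 ± 0.36, adjusted p = 5.98e-08). Under imiquimod 4 of 11 were higher in KO than in control skin, where 0.374% of all genes were. Sprr2b led with a log2 difference of 2.18 ± 0.32 (SE, n = 5 per group, limma adjusted p = 0.00229). The count was 0 when only the imiquimod arrays entered the fit.

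Among 22 other cornified envelope genes, all measured, 14 rose and 1 fell with imiquimod in KO skin, beside 11.1% and 9.71% of all genes. In control skin 13 rose and 0 fell, beside 6.47% and 4.37% of all genes. Tchh, which encodes trichohyalin, belongs to this list and also to the hair list. The number that fell in KO skin was 3 without KO mock replicate 3 and 2 without KO imiquimod replicate 1. In control skin it was 2 without control imiquimod replicate 5 or control mock replicate 5, and 1 without KO mock replicate 3 or with hair as a covariate. The gene that fell with the hair covariate was Flg2 (-0.86, limma adjusted p = 0.0465). Rptn, encoding repetin, rose most, 15.2-fold and 21.2-fold (limma adjusted p = 2.35e-08 and 7.69e-09). Flg2, encoding filaggrin-2, fell in KO skin to 7.54 ± 0.76 after imiquimod, against 9.81 ± 0.41 after mock (SD, n = 5 each, limma adjusted p = 1.7e-05). Between genotypes under imiquimod Flg2 was the 1 gene of this list that passed, at 7.54 ± 0.76 in KO and 9.54 ± 0.32 in control arrays (SD, n = 5 each, limma adjusted p = 0.00245). Over all genes 0.171% were lower.

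Epidermal and T cell cytokines were counted beside the members. Of 18 symbols 15 were measured; the 3 others are the newer names of the IL-36 genes Il1f6, Il1f8 and Il1f9. With imiquimod 13 of 15 rose in KO skin, beside 11.1% of all genes, and 8 in control skin, beside 6.47%. Il1f6, which encodes IL-36 alpha, led in both (19.3-fold and 27.1-fold, limma adjusted p = 3.04e-09 and 1.16e-09). The count in control skin was 5 without control imiquimod replicate 3 or control mock replicate 3. Under imiquimod 6 of 15 were higher in KO than in control skin, where 0.374% of all genes were. The count was 2 when only the imiquimod arrays entered the fit. It was 3 without control imiquimod replicate 1, 2 or 5 or KO imiquimod replicate 2. The largest of these differences was that of Il1b, encoding interleukin-1 beta, at 7.10-fold (limma adjusted p = 0.00186, and 0.0575 with only the imiquimod arrays).

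Genes whose 20 values ran closest to each member were found by the root mean square difference, in log2 units, after each gene was centred on its own mean over the 20 arrays. Lce3a and Lce3b were each other's nearest at 0.355, and Lce3c and Lce3d at 0.366. Outside the family, Lce3a was closest to Gsta4, a glutathione S-transferase (0.416), then Ptprz1, a receptor phosphatase (0.471), and the beta-defensin gene Defb14 (0.483). Lce3b was closest to the phospholipase gene Pla2g4e (0.447), the serine protease gene Prss27 (0.464) and Slc5a1, a sodium-glucose cotransporter (0.518).

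Lce3c ran closest to the kallikrein protease genes Klk13 (0.479) and Klk6 (0.5), with the cystatin-domain gene Cstdc6 between them (0.481). Lce3d was closest to Cstdc6 (0.435), Sprr1b (0.457) and the stefin gene Stfa2l1 (0.486). For Lce3f the nearest gene of all was Stfa2l1 at 0.386, nearer than the closest family member, Lce3d, at 0.526. Lce3e likewise ran nearer to Stfa2l1 (0.496) than to Lce3f (0.528), with Il1f6 (0.598) and Sprr2e (0.636) after them.

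Of these 13 nearest genes outside the family, 5 were higher in KO than in control skin under imiquimod, where 0.374% of all genes were. They were Gsta4, Prss27, Ptprz1, Klk13 and Sprr2e (limma adjusted p = 0.0117, 0.0177, 0.0323, 0.0446 and 0.00245). With only the imiquimod arrays, all of them but Klk13 lost the call, and each of Klk13, Prss27 and Ptprz1 lost it when single arrays were left out. Gsta4, nearest to Lce3a, was at 9.39 ± 0.68 in KO and 7.68 ± 0.68 in control arrays under imiquimod (SD, n = 5 each). Stfa2l1, nearest to Lce3e and Lce3f, was at 9.67 ± 0.37 in KO and 8.68 ± 0.65 in control arrays and did not pass (SD, n = 5 each, limma adjusted p = 0.136). It passed without control imiquimod replicate 3 (adjusted p = 0.0445). These genes were chosen by their likeness over the same arrays, so their values describe them and support nothing about the Lce3 genes. Late cornified envelope genes resemble each other in sequence, as do stefin genes, and whether their probe sets share signal was not tested.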

How the data were processed

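The table the authors deposited holds 41345 probe sets on 20 arrays. Each array received biotinylated product of 200 ng of skin RNA (Affymetrix WT PLUS), per the labels' protocols. The deposited values were taken as log2; how they were summarised and normalized is not named in the sources used here. Probe sets were named through a platform table: 23521 had 1 symbol, 1814 several and 16010 none. The brightest single-symbol probe set stood for a gene, which left 22180 genes, with no filter on dim genes. Symbols and promoters came from RefSeq tables of GRCm38.p6, and promoters matched for all 6 members.

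All genes were fitted in R 4.3.3 with limma 3.58.1 (lmFit, eBayes), with 1 mean per group, 20 arrays, 16 residual degrees of freedom and 5 contrasts. Each gene had 1 spread shared by all 4 groups. Standard errors between the imiquimod groups may therefore be too small for members whose control imiquimod arrays spread more than their mock arrays. Two-sided p-values were adjusted over all genes (Benjamini-Hochberg), with a threshold of 0.05. The fit was tested on simulated data. Exact permutation tests used SciPy 1.17.1 and alignments Biopython 1.88. Folds are 2 raised to the log2 difference. Each of the 5 arrays of a group stands for 1 animal, per the series design.

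The members, the gene lists and the rule for named genes were chosen with earlier results of these data known. The rule named the 6 members and Zfp36, the 3 nearest genes of each member outside the family (provisional symbols left out) and, per list, the largest rise and fall past the threshold; the 6 genes beside the row were added for their position. Alternatives were a fit to the contrast's arrays alone, a block for replicate number, an intensity trend in the prior variance, quantile normalization, median centring, averaging probe sets per gene, testing single probe sets, dropping the 30% dimmest genes, the hair list as covariate, each array left out in turn and, chosen after seeing the data, the array of each group farthest in hair genes left out.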

Additional observations from a re-analysis of the deposited data

Results flagged for a closer look

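Of 32 sets of 5 arrays examined with Dixon's ratio (the 6 members, Zfp36 and the hair list in 4 groups), 2 held an array far from the others, and chance flags about 1 in 20. Both were means of the hair list. Control imiquimod replicate 5 stood at 9.46, against 5.39 to 6.02 in the other arrays of its group. Control mock replicate 5 stood at 6.08, against 9.47 to 10.3 in the other arrays of its group. No group of any Lce3 gene held such an array.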

How the results depend on the processing

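The rises of all 6 members with imiquimod in both genotypes kept their direction and passed limma under each of 30 alternatives, with log2 differences from 3.26 to 5.64 in KO skin and from 1.58 to 5.59 in control skin. Under imiquimod the count of members higher in KO skin, 1 of 6, was 0 with only the arrays of the contrast, with the replicate number as a block (Lce3a adjusted p = 0.0545) and without the array of each group farthest in hair genes, and 0 to 2 when each array was left out in turn. The Lce3a difference lay between 1.27 and 1.85 over the alternatives, with adjusted p from 0.00377 to 0.102. The cause of these changes was not tested. All genes called in that comparison numbered 121, and 17, 78, 333 and 54 with only its arrays, the block, the hair covariate and the farthest arrays left out, and 45 to 174 with each array left out. In mock the number was 2, with 0 to 5 over the alternatives, and for the difference in responses 4, with 3 to 12.

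Replicate numbers did not pair the arrays: deviations of same-numbered arrays correlated between -0.709 and 0.426 over 20 pairs across genes, and the block changed no other call on a member.

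Differences near 0 changed sign. With each array left out, KO minus control in mock ran from -0.22 to 0.015 for Lce3a, -0.12 to 0.11 for Lce3b, -0.071 to 0.27 for Lce3d and -0.10 to 0.24 for Lce3f. The difference in responses ran from -0.037 to 0.41 for Lce3d (-0.04 without the arrays farthest in hair genes) and from -0.10 to 0.45 for Lce3e. Lce1l and 2310050C09Rik in KO skin were each at -0.15 with the hair covariate, and Lce1m in controls at 0.039 with the mean of its probe sets.

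Without the 30% dimmest genes 4 and 7 of the Lce1 group rose with imiquimod in KO and control skin. These counts cover only Lce1 genes bright enough to stay in that fit. They do not show that the genes left out, Lce1k among them, stopped rising. The number of arrays and the unknown background limit all values, above all those of Lce3e and Lce3f in mock skin.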
